A study of Mus musculus with 2 samples.

Results

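Genes that mark position along the gut were followed through 2 single-nucleus RNA libraries of mouse colon. They were the Hox genes Hoxb6, Hoxb9, Hoxb13, Hoxa13, Hoxd10, Hoxd11, Hoxd12 and Hoxd13, and the caudal-type gene Cdx2. These 9 of the 32285 genes in the files were chosen by name, and all 9 had at least 1 unique molecular identifier (UMI, a count of 1 captured RNA molecule) in the nuclei kept. One library came from littermate wild-type (WT) mice and the other from HIF-1α KO mice (Ncr1cre+ Hif-1αfl+/fl+), in which a Cre recombinase under the Ncr1 promoter deletes loxP-flanked Hif1a in cells that express Ncr1 (NKp46), which are natural killer cells and other innate lymphocytes. Both groups were 8 to 12 weeks old and had chronic colitis from 4 cycles of 3 days of 2% dextran sodium sulfate and 4 days of recovery, and the colon was taken on day 28. Each library was a pool of 3 animals. The study lists C57BL/6J mice among its materials and describes the nuclei as coming from whole colon, and how much of each segment went into a pool is not given in the sources used here. With 1 library per genotype there was no replicate check and no test between genotypes was made, so genotype, animals, library and the mix of segments cannot be told apart in any difference given below.

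Hox genes encode homeodomain transcription factors and lie in clusters named Hoxa to Hoxd. Within a cluster, genes with a low paralog number are active toward the head and those with a high number toward the tail, so that members of paralog group 13 mark the hindgut and the most distal colon. Hox proteins bind DNA together with Meis and Pbx cofactors. Cdx2 is the homeodomain factor that sets intestinal identity in the epithelium and acts upstream of several Hox genes.

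The members lie at 4 loci of the mouse genome build GRCm38, all of them protein-coding. Hoxb13 (chr11:96194316-96197447), Hoxb9 (chr11:96271457-96276595) and Hoxb6 (chr11:96292476-96301569) are on the + strand of the Hoxb cluster. Hoxd13 (chr2:74668310-74671599), Hoxd12 (chr2:74675013-74677705), Hoxd11 (chr2:74679557-74687016) and Hoxd10 (chr2:74691924-74695105) are on the + strand of the Hoxd cluster. Hoxa13 (chr6:52257694-52260880) and Cdx2 (chr5:147300805-147307270) are on the - strand. Hoxb6 overlaps the antisense gene Hoxb5os, and Hoxd10 and Hoxd11 overlap the transcript Gm28309 on the same strand, so UMIs of these 3 members are less certain than those of the others.

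Promoter windows from RefSeq on GRCm38.p6, each the 250 bases before an annotated start, matched 6 of the 9 members, and 4 of them are shown because 3 (Hoxd11, Hoxd10 and Hoxd13) had higher levels in smooth muscle-like than in epithelial-like nuclei and the last (Hoxa13) is a group 13 gene that did not. Capitals mark matches to TTTATG, a motif of the kind Cdx proteins bind. They also mark the related motif TTTATA and the motif CCAAT of a common promoter box, and a match on the other strand is printed as its reverse complement. The windows are chr2:74679308-74679557 for Hoxd11, chr2:74691641-74691890 for Hoxd10, chr2:74667975-74668224 for Hoxd13, all on the + strand, and chr6:52260881-52261130 on the - strand for Hoxa13.
Hoxd11: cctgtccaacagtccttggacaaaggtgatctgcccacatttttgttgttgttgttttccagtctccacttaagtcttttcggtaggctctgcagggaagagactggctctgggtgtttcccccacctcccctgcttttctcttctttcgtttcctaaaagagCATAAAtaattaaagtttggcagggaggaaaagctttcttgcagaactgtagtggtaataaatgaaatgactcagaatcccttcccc
Hoxd10: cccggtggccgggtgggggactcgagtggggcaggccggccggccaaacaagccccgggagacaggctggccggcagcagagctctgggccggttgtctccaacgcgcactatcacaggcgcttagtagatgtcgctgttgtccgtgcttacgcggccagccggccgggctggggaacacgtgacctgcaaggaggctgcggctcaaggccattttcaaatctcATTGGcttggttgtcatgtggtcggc
Hoxd13: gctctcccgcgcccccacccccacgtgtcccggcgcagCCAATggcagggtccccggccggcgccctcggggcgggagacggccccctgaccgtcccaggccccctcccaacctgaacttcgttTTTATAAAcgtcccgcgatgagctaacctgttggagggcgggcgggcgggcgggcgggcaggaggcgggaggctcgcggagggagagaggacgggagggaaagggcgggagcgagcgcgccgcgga
Hoxa13: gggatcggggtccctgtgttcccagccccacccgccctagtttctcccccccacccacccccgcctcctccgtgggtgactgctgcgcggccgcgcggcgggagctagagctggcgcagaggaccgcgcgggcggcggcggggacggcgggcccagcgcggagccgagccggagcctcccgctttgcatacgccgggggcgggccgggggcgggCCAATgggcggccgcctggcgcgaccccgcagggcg
Searched on both strands, TTTATG was found 1 time in the Hoxd11 window shown, not in the window of a second Hoxd11 start (chr2:74682073-74682322, + strand, with none of the motifs), and in 10.8% of all 32851 windows of the same length. TTTATA was found 2 times in the Hoxd13 window, as a pair of matches that overlap on opposite strands, and in 12.4% of all windows. CCAAT was found 1 time each in the Hoxd10, Hoxd13 and Hoxa13 windows and in 33.8% of all windows. None of the 3 motifs was in all 4 windows, and a match describes letters only, not a bound site.

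After the filter on quality the WT library held 4884 nuclei with a median of 2058.5 UMIs and the HIF-1α KO library 4702 nuclei with a median of 4197. Nuclei fell into 25 clusters, of which 13 were called epithelial-like by their markers (3279 WT and 3906 HIF-1α KO nuclei) and 3 mesenchymal-like (527 and 260 nuclei). The mesenchymal-like nuclei were 1 smooth muscle-like cluster, led by Actg2 and Myh11 (274 and 128 nuclei), and 2 fibroblast-like clusters (253 and 132 nuclei). Hif1a had 2284 and 4699 UMIs over all nuclei and Ncr1 had 1 and 0, so the deletion could not be checked in the cells that carry it. One cluster of shallow nuclei, with Gpx2, Igkc and Vip among its leading genes, stayed unnamed (707 WT and 142 HIF-1α KO nuclei), and 3 barcodes occurred in both libraries. RNA of epithelial genes was found in mesenchymal-like, endothelial-like and immune-like nuclei, the classes in which it was measured. Over 17 epithelial marker and gut identity genes, the level in mesenchymal-like nuclei was a median of 39.2% of the epithelial level in WT (range 25.8% to 80.4%) and 39.3% in HIF-1α KO (range 30.4% to 98.6%), and the mesenchymal levels of the members are set beside these values below.

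Hoxb9 was the member with the most epithelial UMIs and Hoxb13 the next. Levels are given as UMIs per 1000000 UMIs of the class (CPM) with exact 95% Poisson intervals, which like all intervals here cover counting error only. Hoxb9 had 146 CPM (139 to 154, 1468 UMIs) in WT and 79.2 CPM (75.4 to 83.0, 1688 UMIs) in HIF-1α KO epithelial-like nuclei. Hoxb13 had 46.1 CPM (42.0 to 50.5, 462 UMIs) and 33.9 CPM (31.4 to 36.4, 722 UMIs). Both were higher in the WT library, with intervals that did not overlap between the libraries.

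Cdx2 had 27.6 CPM (24.5 to 31.1, 277 UMIs) in WT and 19.7 CPM (17.9 to 21.7, 420 UMIs) in HIF-1α KO epithelial-like nuclei, again higher in WT. Hoxd13 had 9.27 CPM (7.48 to 11.4, 93 UMIs) and 12.5 CPM (11.1 to 14.1, 267 UMIs), and Hoxa13 had 9.77 CPM (7.93 to 11.9, 98 UMIs) and 12.2 CPM (10.8 to 13.8, 261 UMIs). These 2 group 13 genes lay on the other side from Hoxb13, higher in HIF-1α KO, with intervals between the libraries that overlapped. Hoxd11 was nearly level at 7.88 and 7.69 CPM (79 and 164 UMIs). Hoxd10 had 2.09 and 2.72 CPM (21 and 58 UMIs) and Hoxb6 had 3.39 and 1.83 CPM (34 and 39 UMIs). Hoxd12 had 2 and 1 UMIs, at or under the floor of 3 UMIs, so its epithelial level was below detection at this depth and no ratio is given.

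**Figure D1:**
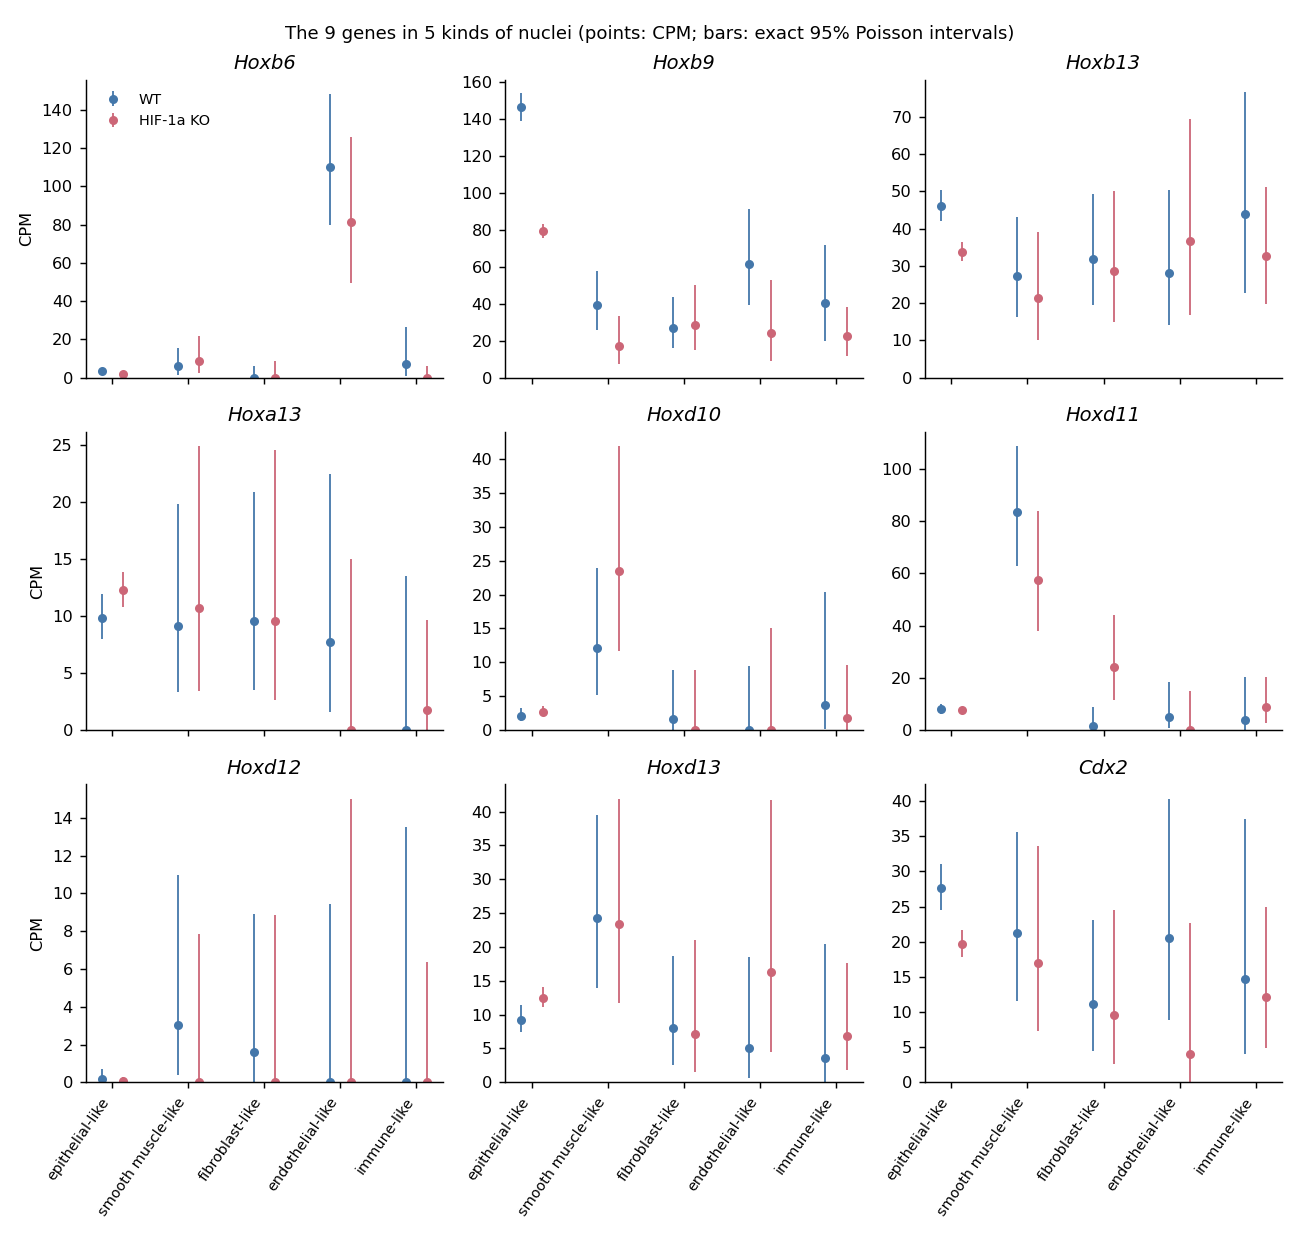
Level in CPM (vertical axis, linear and from 0) of each of the 9 genes in 5 kinds of nuclei (horizontal axis), with WT in blue and HIF-1α KO in red; points are 1 library each and bars exact 95% Poisson intervals. Hoxb9 is highest in epithelial-like nuclei (146 and 79.2 CPM), Hoxd11 in smooth muscle-like nuclei (83.5 and 57.5 CPM) and Hoxb6 in endothelial-like nuclei (110 and 81.4 CPM).

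Divided by the length of the annotated gene, introns included, the order of epithelial levels in WT was Hoxb9 at 28.5 CPM per kb (27.04 to 29.97), Hoxb13 at 14.7 (13.4 to 16.1), Cdx2 at 4.27 (3.78 to 4.80), Hoxa13 at 3.07 (2.49 to 3.74), Hoxd13 at 2.82 (2.27 to 3.45), Hoxd11 at 1.06 (0.836 to 1.32), Hoxd10 at 0.658 (0.407 to 1.01) and Hoxb6 at 0.373 (0.258 to 0.521). Neighbours whose intervals overlapped in this order were Hoxa13 and Hoxd13, Hoxd11 and Hoxd10, and Hoxd10 and Hoxb6. In HIF-1α KO the order changed at 1 place: Hoxa13 (3.84 CPM per kb, 3.39 to 4.34) and Hoxd13 (3.81, 3.36 to 4.29) came before Cdx2 (3.05, 2.76 to 3.35). Reads of this assay start at the 3′ ends of transcripts, so division by gene length can shift genes in this order.

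None of the 8 members with at least 20 UMIs in both libraries together differed 2-fold between the libraries in epithelial-like nuclei as counted. Of these 8, 0 were at least 2-fold higher in HIF-1α KO, where 7.78% of the 15396 genes with as many UMIs were. At least 2-fold lower were 0 of the 8, where 7.83% of these genes were. With shares this low, a count of 0 does not set the 8 members apart from other genes. The log2 ratio of HIF-1α KO over WT was -0.89 for Hoxb9 (exact conditional 95% interval -0.99 to -0.78) and -0.89 for Hoxb6 (-1.59 to -0.18). A share of 9.68% of genes had a lower ratio than Hoxb9, whose interval was the narrowest of the members. The ratio was -0.49 for Cdx2 (-0.71 to -0.26) and -0.44 for Hoxb13 (-0.61 to -0.27). It was 0.43 for Hoxd13 (0.09 to 0.79), 0.38 for Hoxd10 (-0.36 to 1.17), 0.33 for Hoxa13 (-0.01 to 0.68) and -0.03 for Hoxd11 (-0.43 to 0.37). The 3 Hoxb members and Cdx2 therefore had intervals below 0, Hoxd13 had one above 0, and the other 3 had intervals that held 0. The median over the 8 members was -0.24 and that over all genes -0.00. When the level in endothelial-like and immune-like nuclei was subtracted, Cdx2 came to 0.069 and Hoxd13 to -0.75, both with the opposite sign, while Hoxb9 came to -0.74. The same subtraction took 3 members past 2-fold, Hoxd10 to 1.36 (0.588 and 1.51 CPM left in WT and HIF-1α KO), Hoxa13 to 1.07 (5.25 and 11.03 CPM left) and Hoxd11 to -1.04 (3.36 and 1.64 CPM left). Hoxb13 was left at 11.4 CPM in WT and -0.05 CPM in HIF-1α KO, which gives no ratio. The subtracted level rested on few UMIs in WT and HIF-1α KO. They were 3 and 8 for Hoxd13, 3 and 1 for Hoxa13, 1 and 1 for Hoxd10 and 3 and 5 for Hoxd11. The subtracted ratios are given without an interval, so their counting error is not covered. With every nucleus thinned to 1000 UMIs, Hoxb6 came to 1.66.

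The share of nuclei with a UMI moved with depth. Epithelial-like nuclei carried a Hoxb9 UMI in 30.1% of cases in WT and 30.5% in HIF-1α KO, but with every nucleus thinned to 1000 UMIs in 12.4% and 7.91%. Immune-like nuclei (median 1473 and 1784.5 UMIs, against 2426 and 4612.5 in epithelial-like nuclei) had 6.41% and 4.71%, or 3.85% and 2.61% after thinning. Hoxb13 was less separated from this level. It was found in 10.7% and 14.3% of epithelial-like nuclei against 6.41% and 6.52% of immune-like nuclei, and after thinning in 3.84% and 3.11% against 2.56% and 4.10%.

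Within the epithelium, Hoxb9 and Hoxb13 were high in different clusters. The Hox and Cdx genes were kept out of the genes that built the clusters, but other genes of the same nuclei built them, so what follows describes the clusters and tests nothing. Hoxb9 was highest in WT in cluster 0, led by Cyp2c68, Gsdmc2 and Aqp4, at 243 CPM (220 to 268), where HIF-1α KO had 107 CPM (96.8 to 118). In HIF-1α KO it was highest in cluster 2, a mucus-producing enterocyte-like cluster led by Htr4, at 125 CPM (110 to 141), where WT had 196 CPM (167 to 229). It was lowest in both libraries in cluster 7, an absorptive enterocyte-like cluster with Car4, Aqp8 and Atp12a among its leading genes, at 53.1 CPM (40.2 to 68.8) and 25.3 CPM (19.9 to 31.6).

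Hoxb13 was highest in that same cluster 7, at 111 CPM (91.8 to 133) in WT and 78.2 CPM (68.5 to 88.8) in HIF-1α KO, against ranges of 24.7 to 111 CPM and 17.7 to 78.2 CPM over the 11 clusters with at least 20 UMIs. After thinning, 7.69% and 7.71% of its nuclei (221 and 402 in all) had a Hoxb13 UMI, above the 2.56% and 4.10% of immune-like nuclei. Hoxa13 reached 13.04 CPM (7.13 to 21.9) in cluster 7 in WT and 25.3 CPM (19.9 to 31.6) in HIF-1α KO, where that was its highest cluster. Cdx2 was highest in WT in cluster 9, a goblet-like cluster led by Clca1, at 44.9 CPM (31.1 to 62.7), and in HIF-1α KO in the absorptive enterocyte-like cluster 4, led by Slc9a3, at 28.004 CPM (22.3 to 34.7). It was lowest among the clusters with at least 20 UMIs in cluster 5 in WT (17.9 CPM) and in cluster 12 in HIF-1α KO (13.2 CPM).

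**Figure D2:**
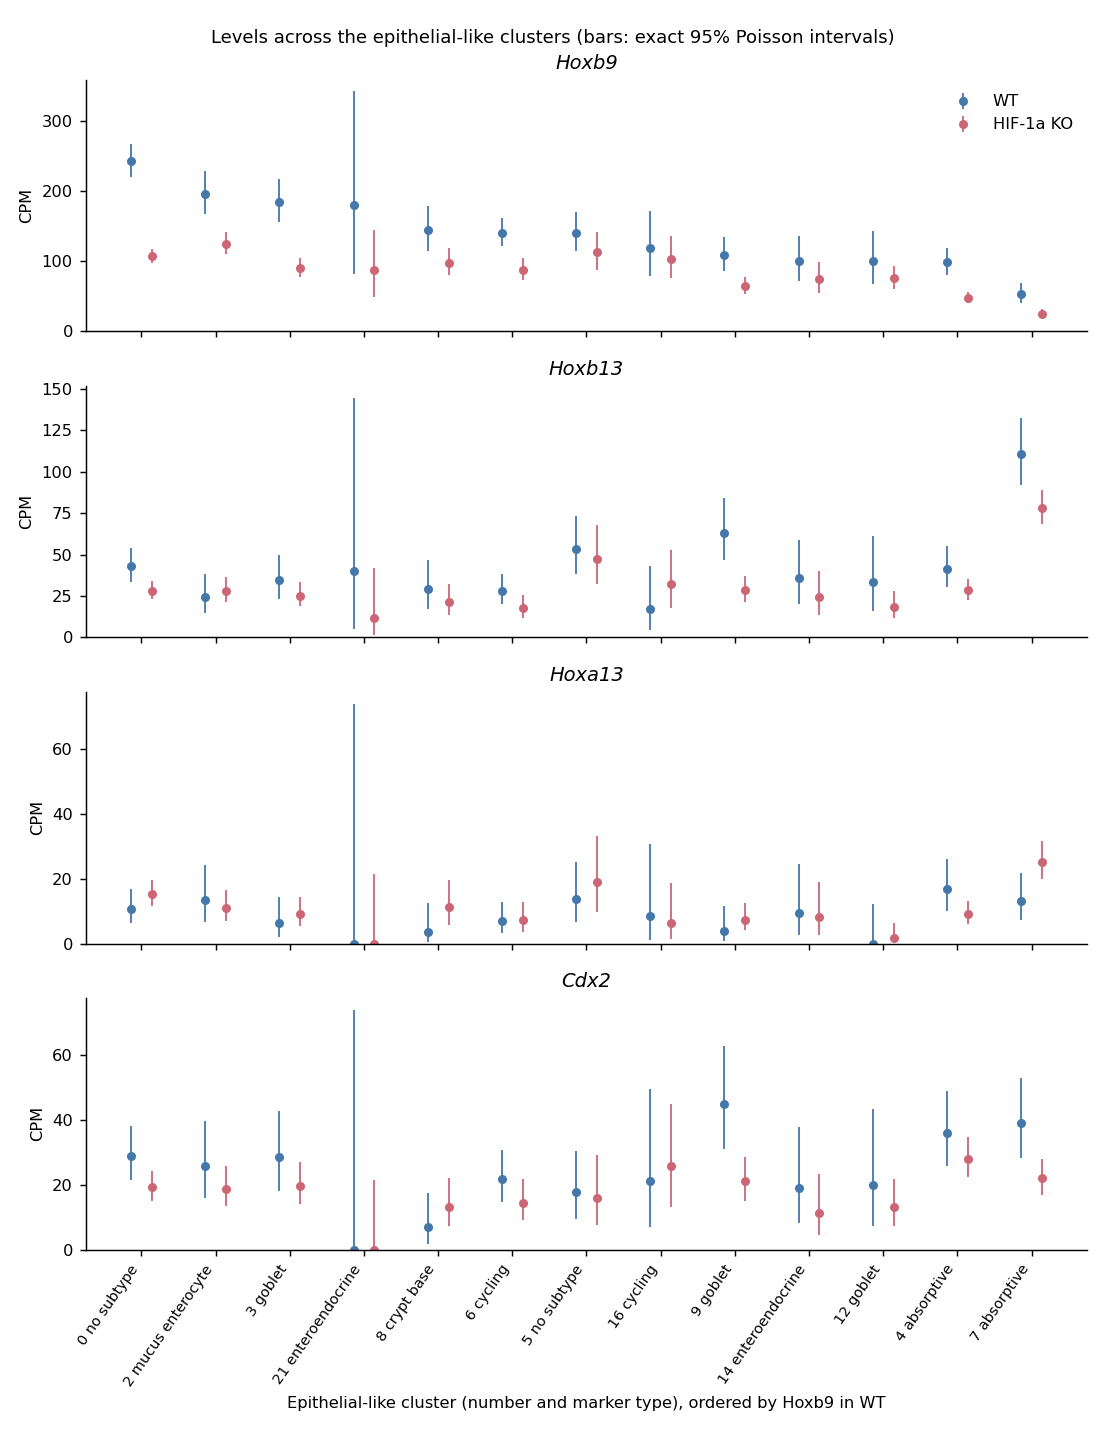
Level in CPM (vertical axis, linear and from 0) of Hoxb9, Hoxb13, Hoxa13 and Cdx2 in the 13 epithelial-like clusters (horizontal axis, ordered by Hoxb9 in WT), with WT in blue and HIF-1α KO in red; bars are exact 95% Poisson intervals. Cluster 7 at the right end has the lowest Hoxb9 (53.1 and 25.3 CPM) and the highest Hoxb13 (111 and 78.2 CPM).

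The order of the clusters was alike in both libraries for most members. On the scale log2(CPM + 10), the Pearson correlation between the libraries over the 13 clusters was 0.87 for Cdx2, 0.84 for Hoxb9, 0.76 for Hoxa13, 0.71 for Hoxd13, 0.62 for Hoxb13 and -0.01 for Hoxd11. Within a library, Hoxb9 and Hoxb13 had a correlation of -0.52 in WT and -0.49 in HIF-1α KO. The points share a library, and the clusters share free RNA and differ in depth, so these values are descriptions.

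The lower Hoxb9 of the HIF-1α KO library was seen cluster by cluster, but the clusters share the same libraries and are not separate observations. It was lower in 13 of 13 epithelial-like clusters, in 8 of them with an interval below 0, and the log2 ratio ran from -1.18 (-1.38 to -0.98) in cluster 0 to -0.21 (-0.91 to 0.52) in cluster 16, a cycling cluster. Hoxb13 was lower in 10 of 11 clusters with at least 20 UMIs, in 3 of them with an interval below 0, and the exception was cluster 2. Cdx2 was lower in 9 of 9, in 3 with an interval below 0. Hoxd13 was higher in 6 of 7 and Hoxa13 in 5 of 7, in 1 of which, cluster 7, the interval lay above 0. In the unnamed cluster, Hoxb9 had 62.5 CPM (48.3 to 79.7) in WT and 60.4 CPM (35.2 to 96.7) in HIF-1α KO, with intervals that overlapped.

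Nuclei with a Hoxb13 UMI also carried more of the distal transport gene Atp12a, which encodes the colonic proton-potassium pump. In WT, Atp12a was at 675 CPM (634 to 717) in the 351 epithelial-like nuclei with a Hoxb13 UMI and 207 CPM (198 to 217) in the 2928 without. In HIF-1α KO it was at 392 CPM (372 to 412) in 560 nuclei and 173 CPM (167 to 179) in 3346. The proximal gene Slc9a3 was higher in nuclei with a Hoxb13 UMI as well, at 231 against 161 CPM in WT and 225 against 138 CPM in HIF-1α KO, and the distal gene Scnn1b was at 37.6 against 32.2 CPM and 19.8 against 23.3 CPM. Within cluster 7, Atp12a was at 1895 against 1192 CPM in WT and 850 against 845 CPM in HIF-1α KO. Cluster 7 held 20.5% and 24.8% of the nuclei with a Hoxb13 UMI and 5.09% and 7.86% of those without. The nuclei with a UMI were deeper (medians of 3479 against 2334 UMIs in WT and 5856 against 4449 in HIF-1α KO), and the part of depth in this was not tested.

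In mesenchymal-like nuclei the leading member by UMIs was Hoxd11. It had 43.6 CPM (32.9 to 56.6, 56 UMIs) in WT and 41.7 CPM (29.4 to 57.5, 37 UMIs) in HIF-1α KO. Hoxd10 had 7.004 CPM (9 UMIs) and 12.4 CPM (11 UMIs), and Hoxd13 had 16.3 CPM (21 UMIs) and 15.8 CPM (14 UMIs). These 3 Hoxd genes had a higher level in mesenchymal-like than in epithelial-like nuclei in both libraries, above the range of the 17 epithelial genes. The fold was 5.53 in WT and 5.42 in HIF-1α KO for Hoxd11, 3.35 and 4.56 for Hoxd10, and 1.76 and 1.26 for Hoxd13, where the interval of the HIF-1α KO log2 ratio held 0 (-0.56 to 1.11). Of the 8 members with at least 20 UMIs, 2 were at least 2-fold higher in mesenchymal-like nuclei in WT, where 14.9% of 13455 genes were, and 3 in HIF-1α KO, where 16.6% of 14817 genes were. The additional one in HIF-1α KO was Hoxb6, on 4 mesenchymal UMIs, and its interval held 0. Its mesenchymal level was 91.8% of its epithelial level in WT and 246% in HIF-1α KO, above the range of the 17 genes in both. Hoxd12, with 3 and 0 mesenchymal UMIs, was too low to be set beside them.

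Hoxb9 lay on the other side. It had 33.5 CPM (43 UMIs) and 22.5 CPM (20 UMIs) in mesenchymal-like nuclei and was 4.37-fold lower there than in epithelial-like nuclei in WT and 3.51-fold lower in HIF-1α KO. These levels were 22.9% and 28.5% of the epithelial ones, under the lowest of the 17 epithelial genes. Hoxb13 (29.6 and 24.8 CPM) and Cdx2 (16.3 and 13.5 CPM) lay within the range of these 17 genes in both libraries. Hoxa13 had 9.34 and 10.1 CPM, 95.6% and 82.9% of its epithelial level, which was above that range in WT and within it in HIF-1α KO. Hoxb13 was also found at 43.9 CPM (22.7 to 76.7) in WT and 32.8 CPM (19.7 to 51.2) in HIF-1α KO immune-like nuclei, and the intervals of its immune over epithelial log2 ratio held 0. Hoxa13 had 0 and 1 UMIs there and Hoxb9 had 40.2 and 22.4 CPM. With the level of endothelial-like and immune-like nuclei subtracted, mesenchymal Hoxb9 came to -19.2 and -0.47 CPM and Hoxb13 to -5.06 and -9.12 CPM. Cdx2 was left at -1.73 and 3.84 CPM and Hoxa13 at 4.82 and 8.93 CPM, while Hoxd11 kept 39.1 and 35.6 CPM. The subtraction cannot be read as removal of free RNA alone, so its negative values do not show that mesenchymal-like nuclei lack a transcript.

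Within the mesenchymal-like nuclei, Hoxd10, Hoxd11 and Hoxd13 were higher in smooth muscle-like than in fibroblast-like nuclei in both libraries. Hoxd11 had 83.5 CPM (62.9 to 109, 55 UMIs) in WT and 57.5 CPM (37.9 to 83.7, 27 UMIs) in HIF-1α KO smooth muscle-like nuclei. In fibroblast-like nuclei it had 1.60 CPM (1 UMI) and 23.9 CPM (11.5 to 44.0, 10 UMIs), so that the 2 layers were far apart in WT and closer in HIF-1α KO, where the log2 ratio of smooth muscle over fibroblast was 1.26 (0.17 to 2.48). Of the 10 UMIs in HIF-1α KO, 3 lay in the fibroblast-like cluster 22, which held 10 nuclei there. Over epithelial-like nuclei, the smooth muscle level of Hoxd11 was 10.6-fold higher in WT and 7.47-fold higher in HIF-1α KO. Hoxd10 had 12.1 CPM (8 UMIs) and 23.4 CPM (11 UMIs) in smooth muscle-like nuclei and 1 and 0 UMIs in fibroblast-like nuclei. In mesothelial-like nuclei, a separate class (17 and 13 nuclei), Hoxd11 had 92.6 CPM (5 UMIs) in WT and 0 UMIs in HIF-1α KO. Hoxd10 had 55.6 CPM (3 UMIs) in WT and 0 UMIs in HIF-1α KO in that class. Hoxd13 had 24.3 CPM (16 UMIs) and 23.4 CPM (11 UMIs) in smooth muscle-like nuclei and 7.99 CPM (5 UMIs) and 7.18 CPM (3 UMIs) in fibroblast-like nuclei. Its log2 ratio of smooth muscle-like over epithelial-like nuclei was 1.39 (0.52 to 2.16) in WT and 0.90 in HIF-1α KO, where the interval held 0 (-0.12 to 1.77). Per kb of gene, Hoxd11 led in smooth muscle-like nuclei at 11.2 CPM per kb (8.43 to 14.6) in WT and 7.71 (5.08 to 11.2) in HIF-1α KO, but the intervals of Hoxb13, Hoxb9, Hoxd13 and, in HIF-1α KO, Hoxd10 overlapped its own.

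None of the 7 members with at least 20 UMIs differed 2-fold between the libraries in mesenchymal-like nuclei. Of these 7, 0 were at least 2-fold higher in HIF-1α KO, where 4.47% of the 9874 genes were, and 0 at least 2-fold lower, where 3.41% were. Such low shares mean that a count of 0 does not set the 7 members apart from other genes. The log2 ratio of HIF-1α KO over WT was -0.06 for Hoxd11 (-0.70 to 0.56), -0.05 for Hoxd13 (-1.14 to 0.99), 0.82 for Hoxd10 (-0.58 to 2.27), 0.12 for Hoxa13 (-1.31 to 1.49), -0.25 for Hoxb13 (-1.08 to 0.54), -0.27 for Cdx2 (-1.43 to 0.82) and -0.57 for Hoxb9 (-1.41 to 0.23). All 7 intervals held 0, and each also held the epithelial ratio of the same gene, so a difference of that size was not detectable at this depth. Hoxb6 had 4 and 4 UMIs, and Hoxd12 had 3 and 0, where the floor of 3 UMIs allows up to 3.38 CPM in HIF-1α KO.

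Hoxb6, the Hox member with the lowest paralog number, was highest outside both of these classes. It had 110 CPM (79.7 to 148, 43 UMIs) in WT and 81.4 CPM (49.7 to 126, 20 UMIs) in HIF-1α KO endothelial-like nuclei, 32.5-fold and 44.5-fold above epithelial-like nuclei. Both blood endothelial-like (148 and 75.2 CPM) and lymphatic endothelial-like nuclei (76.7 and 87.3 CPM) held it. Mesothelial-like nuclei, 17 and 13 in number, had 185 CPM (10 UMIs) and 146 CPM (7 UMIs). Immune-like nuclei had 2 and 0 UMIs. Other Hox genes with low numbers were found in endothelial-like nuclei too, Hoxb3 at 148 and 52.9 CPM and Hoxd3 at 51.2 and 44.8 CPM, but both overlap other genes of their clusters and their UMIs are uncertain. Hoxb3 was also at 55.3 and 66.5 CPM in mesenchymal-like nuclei, above its endothelial-like level in HIF-1α KO.

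**Figure D3:**
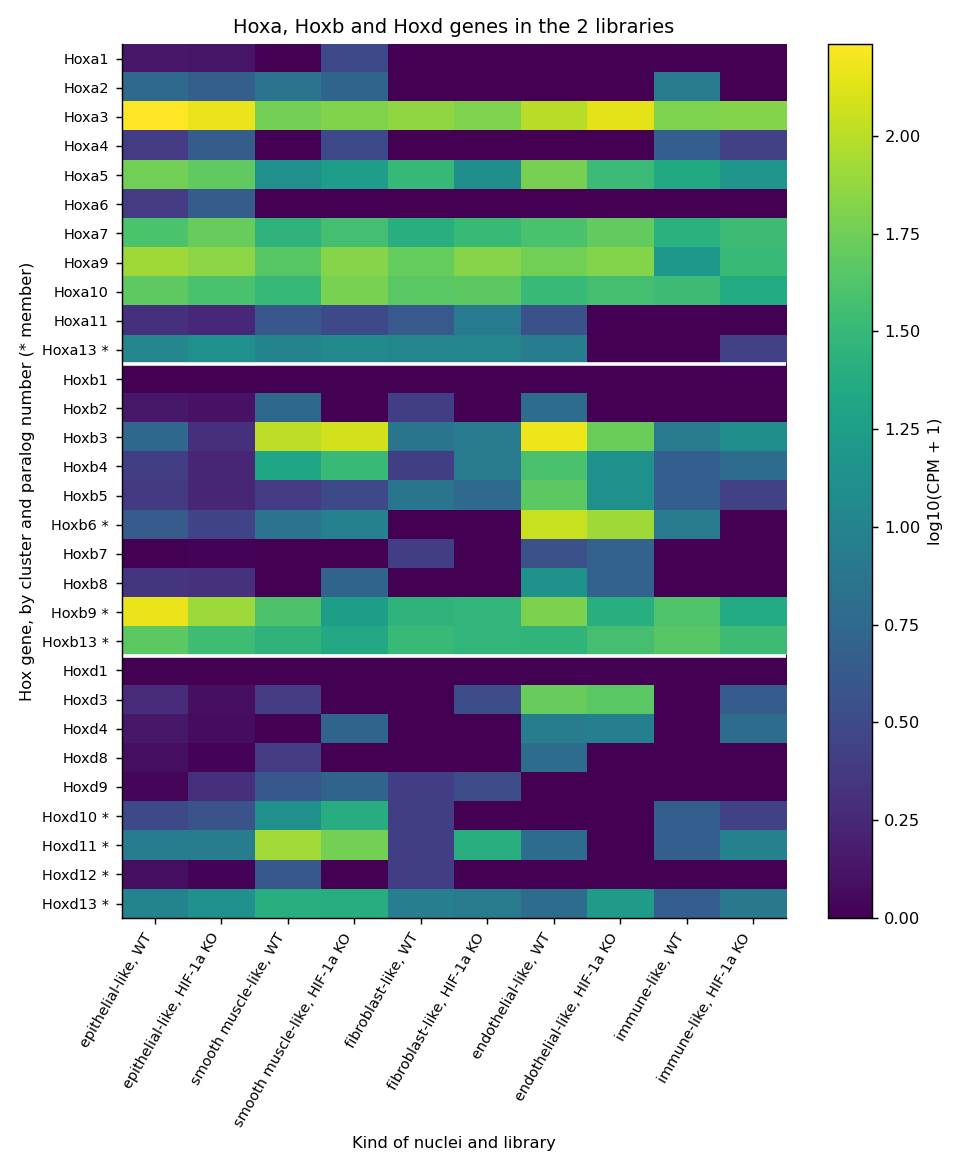
Levels of the Hoxa, Hoxb and Hoxd genes (rows, by cluster and paralog number, members starred) in 5 kinds of nuclei and 2 libraries (columns); colour is log10(CPM + 1). Hoxd10, Hoxd11 and Hoxd13 are brightest in smooth muscle-like columns (Hoxd11 83.5 and 57.5 CPM), and Hoxb6 is brightest in endothelial-like columns.

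The other Hox genes set the members in context. Of 39 Hox genes in the files, the Hoxc cluster had 14 UMIs in all WT and 20 in all HIF-1α KO nuclei. Hoxa genes gave 64.6% of the Hox UMIs of epithelial-like nuclei in WT and 72.3% in HIF-1α KO, Hoxb genes 32.0% and 22.9%, and Hoxd genes 3.29% and 4.72%. In mesenchymal-like nuclei Hoxd genes gave 17.2% and 16.3%. The Hox gene with the most UMIs was Hoxa3, at 171 and 145 CPM in epithelial-like nuclei, but its annotated gene spans Hoxa4, Hoxa5 and Hoxa6, so its UMIs are uncertain. Hoxa9 was at 82.0 and 68.6 CPM and Hoxa10 at 46.8 and 37.9 CPM, and neither overlaps another gene of the files.

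Transcripts of paralog groups 10 to 13 made up 19.2% (exact binomial 95% interval 18.3% to 20.2%) of the 6415 Hox UMIs of WT epithelial-like nuclei and 20.8% (20.1% to 21.6%) of the 11049 of HIF-1α KO. The difference was 1.57 percentage points (0.33 to 2.80), and it became -1.18 when the level in endothelial-like and immune-like nuclei was subtracted. That level includes Hox genes with low numbers that were higher in endothelial-like than in epithelial-like nuclei. Epithelial Hoxb6 was left at -64.4 and -22.4 CPM, so the subtraction cannot be read as removal of free RNA alone. The mean paralog number weighted by UMIs moved the other way, from 7.26 to 7.16. Group 13 alone made up 10.2% and 11.3%. In mesenchymal-like nuclei groups 10 to 13 made up 34.9% (30.9% to 39.1%) and 34.4% (29.9% to 39.2%), a difference of -0.47 points (-6.63 to 5.76), and in endothelial-like nuclei 9.63% and 14.5%. Cluster 7 had the largest share among the epithelial-like clusters computed (0, 4 and 7), 46.7% (42.3% to 51.1%) and 44.3% (41.5% to 47.2%), against 15.0% and 18.2% in cluster 0. Hoxb13 was highest in cluster 7 and is itself part of this share. It gave 119 of the 240 UMIs of groups 10 to 13 there in WT and 235 of 521 in HIF-1α KO. The share of cluster 7 is therefore partly the same result.

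The ratio between the libraries did not follow paralog number. Among the 14 other Hox genes with at least 20 epithelial UMIs, 3 were at least 2-fold higher in HIF-1α KO and 2 at least 2-fold lower, with a median log2 ratio of -0.24. Of all 15396 genes with as many UMIs, 7.78% were at least 2-fold higher and 7.83% at least 2-fold lower. Hoxa4 (1.25, 0.44 to 2.16), Hoxa6 (1.23, 0.42 to 2.14) and Hoxd9 (3.37, 0.74 to 8.74, on 1 and 22 UMIs) were higher, the first 2 of which overlap Hoxa3, and Hoxb3 (-2.22, -3.04 to -1.45) and Hoxb4 (-1.09, -2.18 to 0.01) were lower. Hoxa9 (-0.26) and Hoxa10 (-0.30) were lower and Hoxa7 (0.38) higher, each with an interval that left out 0. By cluster, the Hoxb genes with at least 20 UMIs (Hoxb3, Hoxb4, Hoxb5, Hoxb6, Hoxb8, Hoxb9 and Hoxb13) had ratios below 0, from -2.22 for Hoxb3 to -0.15 for Hoxb8, and the intervals of Hoxb4, Hoxb5 and Hoxb8 held 0. Hoxa and Hoxd genes lay on both sides of 0. In mesenchymal-like nuclei the 7 other Hox genes with as many UMIs had a median of 0.40 and all 7 intervals held 0. Epithelial Hoxb3 was at 4.59 CPM in WT and 0.985 CPM in HIF-1α KO, but mesenchymal Hoxb3 at 55.3 and 66.5 CPM. Hoxb6 was 32.5-fold and 44.5-fold higher in endothelial-like than in epithelial-like nuclei, while Hoxb9 and Hoxb13 were lower in mesenchymal-like nuclei. Mesenchymal-like nuclei made up 10.8% in WT but 5.53% in HIF-1α KO, and endothelial-like nuclei 3.24% and 1.57%. The part of their free RNA in the epithelial Hoxb values was not tested.

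**Figure D4:**
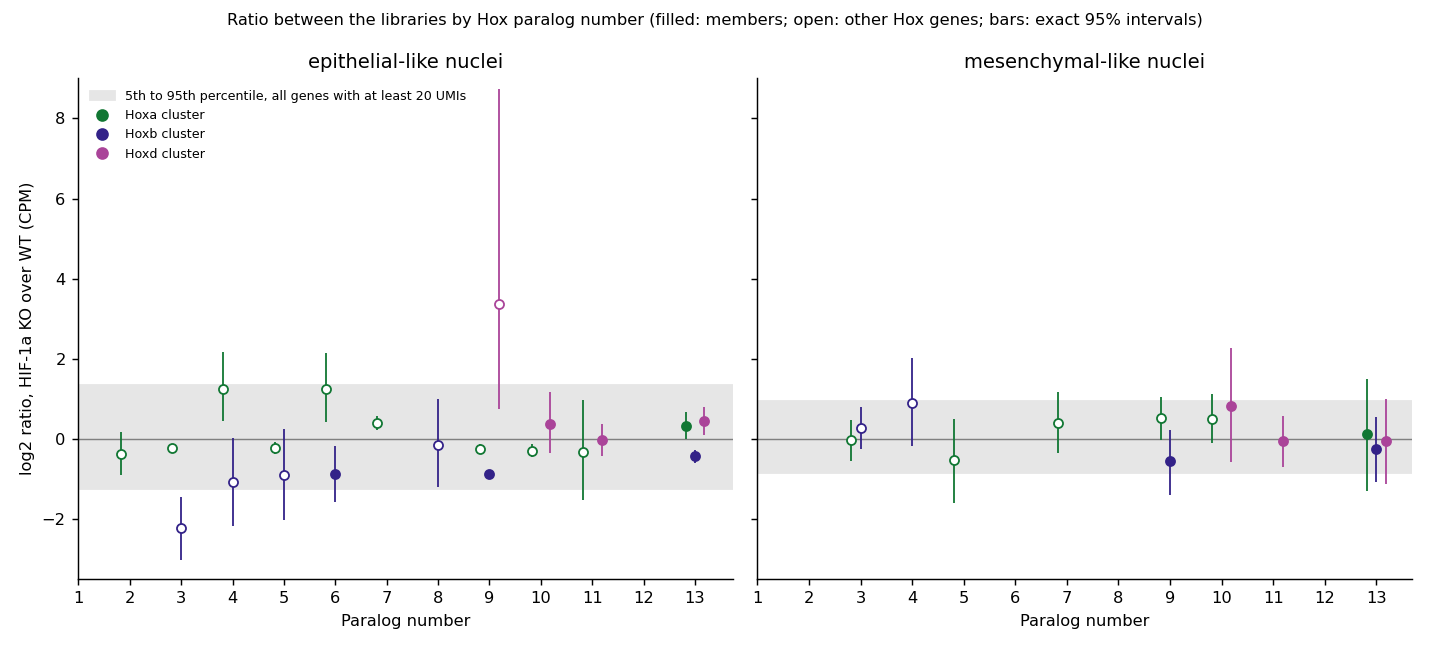
log2 ratio of HIF-1α KO over WT (vertical axis) against Hox paralog number (horizontal axis, the Hoxa, Hoxb and Hoxd clusters drawn slightly apart) in epithelial-like and mesenchymal-like nuclei; filled points are members, open points other Hox genes, bars exact conditional 95% intervals and the grey band the 5th to 95th percentile of all genes with at least 20 UMIs. Among group 13 genes in epithelial-like nuclei Hoxb13 is below 0 (-0.44) and Hoxa13 (0.33) and Hoxd13 (0.43) are above it.

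Of the 7 Meis and Pbx cofactor genes, all had at least 20 epithelial UMIs and 3 were at least 2-fold lower in HIF-1α KO, where 7.83% of 15396 genes were. Of their intervals 5 lay below 0 and none above. Meis2 was at 31.0 and 9.38 CPM, Meis1 at 11.7 and 4.13 CPM and Meis3 at 3.99 and 1.69 CPM. In mesenchymal-like nuclei, where Meis2 (712 and 1054 CPM) and Meis1 (315 and 456 CPM) were far higher, 5 cofactors had enough UMIs and 3 had intervals above 0: Meis2 (0.57), Meis1 (0.53) and Pbx3 (0.29). The WT library held a larger share of mesenchymal-like nuclei (10.8% against 5.53%), and the part of free mesenchymal RNA in the epithelial values was not tested.

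Among 9 gut and colon epithelial identity genes found in the files, 8 had at least 20 UMIs in epithelial-like nuclei, 6 with an interval above 0 and 0 below. Of these, 1 was at least 2-fold higher in HIF-1α KO, where 7.78% of 15396 genes were. It was Gata4, on 3 and 18 UMIs, with an interval that held 0. Cdx1, the paralog of Cdx2, was at 77.7 CPM in WT and 124 CPM in HIF-1α KO (log2 ratio 0.67, 0.56 to 0.79), and so lay on the other side from Cdx2. Gata4, which marks the proximal small intestine, was at 0.299 and 0.844 CPM. Gata6 (92.3 and 113 CPM) and Hnf4a (536 and 589 CPM), both of them broad gut epithelial factors, were slightly higher in HIF-1α KO. In mesenchymal-like nuclei, 4 of 9 gut mesenchymal identity genes had at least 20 UMIs, 1 of them with an interval below 0: Foxf1, a hedgehog target of the gut wall, at 39.7 and 20.3 CPM (-0.97, -1.83 to -0.17).

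Transport genes whose use differs along the colon were present on both sides. The proximal genes were Aqp4, a water channel, at 278 and 196 CPM in epithelial-like nuclei, and Slc9a3, a sodium-proton exchanger, at 172 and 154 CPM. Both were lower in HIF-1α KO, with log2 ratios of -0.50 (-0.57 to -0.43) and -0.16 (-0.24 to -0.07). Of the distal genes, Atp12a was at 279 and 213 CPM (-0.39), and the sodium channel subunits were at 33.0 and 22.7 CPM for Scnn1b (-0.54), 17.9 and 8.30 CPM for Scnn1g (-1.11) and 38.1 and 64.1 CPM for Scnn1a (0.75). So both proximal and 3 of 4 distal genes were lower in the HIF-1α KO library, and 1 distal gene was higher, each with an interval that left out 0. Their places in the epithelium differed. Aqp4 was at 689 and 484 CPM in cluster 0 and 68.9 and 60.5 CPM in cluster 7, Atp12a at 48.8 and 35.3 CPM in cluster 0 and 1474 and 847 CPM in cluster 7, and Scnn1b was highest, of the 13 clusters, in the goblet-like cluster 9 at 292 and 159 CPM.

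Over the 13 epithelial-like clusters Hoxb9 had a correlation with Aqp4 of 0.71 in WT and 0.52 in HIF-1α KO and with Atp12a of -0.73 and -0.87, and Hoxb13 had one with Atp12a of 0.66 and 0.68 and with Aqp4 of -0.24 and -0.10. The other proximal gene, Slc9a3, ran the other way from Aqp4, with a correlation of -0.59 and -0.82 with Hoxb9 and 0.55 and 0.47 with Hoxb13, and it was at 489 and 368 CPM in cluster 7 and 39.4 and 35.5 CPM in cluster 0. Of the sodium channel subunits, Scnn1a had 0.60 and 0.64 with Hoxb13, while Scnn1b had 0.17 and -0.26 and Scnn1g 0.41 and -0.15. Hoxb9 and Hoxb13 therefore did not divide the clusters into those with the proximal and those with the distal transport genes. The other members were not set against the transport genes in this way.

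For the position along the colon, both pools held group 13 Hox transcripts (Hoxb13, Hoxa13 and Hoxd13) and little Gata4, and both held epithelial clusters with the transport genes of the proximal and of the distal colon. As background, group 13 genes are known from the distal gut and Gata4 from the proximal small intestine. The values that differ between the pools did not point one way. Hoxb13 and 3 distal transport genes were lower in HIF-1α KO, Scnn1a was higher, and the proximal genes Aqp4 and Slc9a3 were lower. Hoxd13 was higher in HIF-1α KO as counted but lower after the subtraction of the endothelial-like and immune-like level, which rested on 3 and 8 UMIs. After the same subtraction Hoxb13 was left at 11.4 CPM in WT and -0.05 CPM in HIF-1α KO. The interval of Hoxa13 held 0. No nuclei of known position were in the data against which a level could be read, so a difference in the segments sampled was not tested.

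The genes most like the 2 leading members were sought over 22 groups of nuclei (types with at least 50 nuclei in a library, each library apart) on the scale log2(CPM + 10) among 12787 genes. For Hoxb9 they were the noncoding gene Gm53 (r = 0.92), Isoc2a (r = 0.92) and Gm36235 (r = 0.90). Gm53 (chr11:96251105-96264868, + strand) lies between Hoxb13 and Hoxb9 and was at 215 and 179 CPM in epithelial-like nuclei. Its log2 ratio of -0.26 (-0.34 to -0.19) was closer to 0 than that of Hoxb9. For Hoxd11 they included Chrdl1, which encodes a BMP antagonist (r = 0.87), and Ldb3, which encodes a muscle Z-band protein (r = 0.87). Of 17 noncoding or other genes of the Hox clusters, 5 had at least 20 epithelial UMIs, 3 with an interval above 0 and 2 below. Hotairm1 was the one past 2-fold (9 and 73 UMIs, 1.93, 0.93 to 3.12), where 7.78% of 15396 genes were at least 2-fold higher. Hoxa11os had the most UMIs, at 259 and 219 CPM.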

How the data were processed

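Nuclei of the colon were profiled with 10x 3′ single-nucleus RNA-seq, 1 library per genotype. Per the labels and the study's methods, the authors made the deposited counts (unnormalized UMI counts per gene and barcode) with Cell Ranger 7.0.1 on mm10, keeping barcodes it called as cells. Whether introns or strand were used in counting is not given in the sources used here. All 4896 WT and 4772 HIF-1α KO barcodes were read (13492810 and 25489277 UMIs), and nuclei with 400 to 5000 detected genes and at most 10% mitochondrial UMIs were kept.

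Both libraries were integrated by anchors and clustered in R 4.3.3 with Seurat 5.3.0 (up to 2000 variable features without the Hox and Cdx genes, 30 components, resolution 1). A cluster took the name, with -like, of the cell type with most passing markers if there were at least 3, where a marker passed with a log2 ratio of CPM + 10 of at least 1 over all other nuclei and a UMI in at least 10% of the cluster's nuclei. Clusters left over were tested for general mesenchymal markers and then for general epithelial markers against the named clusters of other classes, and stayed unnamed where an immunoglobulin gene was among the 10 leading genes. The values in this rule were chosen once the nuclei had been examined. Doublets were not removed beyond the limit on detected genes. UMIs were summed per class and library with Python 3.11.15, numpy 2.4.6, pandas 2.3.3 and scipy 1.17.1, which gave the exact intervals, and gene positions came from GENCODE M21 (32235 of the 32285 gene IDs matched). The scripts were tested on simulated data.

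With 1 library per genotype no test was made. A gene was counted as differing at a 2-fold CPM difference among genes with at least 20 UMIs. The members and gene lists were chosen with earlier results of these data known. Genes named in the text are the members, other Hox genes with at least 20 UMIs, the Meis and Pbx cofactors, gut epithelial and mesenchymal identity genes, regional transport genes, noncoding genes of the Hox clusters, and the 3 genes most like each of the 2 leading members. A gene of the identity list that was not found in the files (1) was left out, and the values of some genes that the rule names are not reported here. The alternatives were no filter on nuclei, no integration, resolutions of 0.5 and 2, classes from each nucleus' own markers, equal weights for nuclei, the same mix of clusters in both libraries, median-of-ratios scaling, thinning to 1000 UMIs, subtraction of free RNA, other minimums of UMIs, paralog group 13 alone, and both handlings of single clusters named in the closing section.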

Additional observations from a re-analysis of the deposited data

How the results depend on the processing

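No paired analysis was possible because each genotype has 1 library. The log2 ratio of Hoxb9 in epithelial-like nuclei stayed below 0 under 12 of 12 alternatives (-0.91 to -0.70) and that of Hoxb13 under 11 of 11 (-0.50 to -0.34). Of these alternatives, 2 were chosen after seeing the data: counting the unnamed cluster as epithelial-like and leaving out the cluster led by Gm42418 and AY036118. When the CPM of endothelial-like and immune-like nuclei was subtracted as free RNA, Hoxd13 came to -0.75, Cdx2 to 0.069, Hoxa13 to 1.07, Hoxd10 to 1.36 and Hoxd11 to -1.04 in epithelial-like nuclei, and the share of groups 10 to 13 differed by -1.18 percentage points in epithelial-like and -35.5 in mesenchymal-like nuclei. This subtraction gave no ratio for Hoxb6 and Hoxb13 in epithelial-like nuclei, nor for Hoxb6, Hoxb9, Hoxb13 and Cdx2 in mesenchymal-like nuclei. Epithelial Hoxb13 was left at 11.4 and -0.05 CPM and Hoxb6 at -64.4 and -22.4 CPM in WT and HIF-1α KO. With such negative values, the subtraction cannot be read as removal of free RNA alone. The subtracted levels of Hoxa13, Hoxd10, Hoxd11 and Hoxd13 rested on 8 UMIs or fewer per library. With nuclei thinned to 1000 UMIs, Hoxb6 came to 1.66, and 635 genes were at least 2-fold higher and 788 lower in epithelial-like nuclei, where fewer genes reach 20 UMIs. At a minimum of 1 UMI the counts were 4082 higher and 3712 lower in epithelial-like and 2953 and 2906 in mesenchymal-like nuclei, and at 50 UMIs they were 770 and 775, and 148 and 101, since the number of genes compared changes with the minimum. The causes were not tested. Depth limits the mesenchymal-like values, with 56 UMIs or fewer per member and library.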
